A study of Mus musculus with 9 samples.

Results

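The genes described here are 10 members of the insulin-like growth factor (IGF) system: the ligand gene Igf1, its receptor gene Igf1r, the secreted binding-protein genes Igfbp2 to Igfbp7 and the mRNA-binding-protein genes Igf2bp1 and Igf2bp3. They were chosen by gene symbol, and all 10 were found among the 50813 genes of the count table. Expression was measured by RNA-seq of polyadenylated RNA from LLC cells (Lewis lung carcinoma, a mouse lung cancer line), grown in DMEM with fetal bovine serum. WT cells and the CD47 KO clones E3 and E5 gave 3 libraries each, 9 in all, and per the paper's methods the LLC cells stably expressed luciferase and the replicates were independent biological ones. Each KO line is a single clone made with Cas9 ribonucleoprotein directed at the Cd47 coding sequence, so that loss of CD47 and the history of a clone cannot be told apart within either KO line.

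IGF1 and IGF2 are growth factors that bind the receptor tyrosine kinase IGF1R, which signals through its adaptor proteins to the PI3K-AKT and MAPK pathways. In the extracellular space the IGFs are held by IGF-binding proteins, which keep them from the receptor until a protease such as PAPP-A cuts the binding protein. The IGF2BP proteins are a separate family despite their name: they bind mRNAs inside the cell, Igf2 mRNA among them, are abundant in the embryo, and return in many tumours. IGF2BP1, IGF2BP3, LIN28B and HMGA2 are known as targets of the let-7 microRNAs.

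Total counts per library were 44257404 to 55095219, and 14593 genes passed a filter on low counts and were tested. Levels are given as normalised CPM (counts per 1000000 of a library's total after TMM scaling), and changes as log2 fold changes from edgeR's quasi-likelihood test, fitted to the 3 lines together. A gene passed the test where its p, adjusted over all 14593 genes by the Benjamini-Hochberg method, was under 0.05, and it was a DEG where its absolute log2 fold change also exceeded 1. Cd47 itself was at 179 to 187 CPM in WT, 36.7 to 49.6 CPM in KO E3 and 15.5 to 18.6 CPM in KO E5, with log2 fold changes of -2.03 and -3.39 against WT (adjusted p = 4.9e-06 and 1.07e-07). All 7 mesenchymal markers (such as Vim) were above 1 CPM in every library of every line, and 6 of 7 immune markers were at or under 3 counts in every library. The mesenchymal markers summed to 6240 to 6710 CPM in WT, 6380 to 7120 CPM in KO E3 and 7320 to 8750 CPM in KO E5. Single genes of the mesenchymal set moved in opposite directions. The mean of Vim was 4170 CPM in WT and 6570 CPM in KO E5, and that of Fn1 1930 and 1220 CPM. The summed level of 7 epithelial markers differed between the lines, at 451 to 459 CPM in WT, 127 to 199 CPM in KO E3 and 896 to 958 CPM in KO E5, nearly all of it from Krt8 and Krt18. Likewise, 7 fibroblast markers summed to 48.8 to 64.1, 48.5 to 82.5 and 17.8 to 21.1 CPM. Single genes of this sum moved in opposite directions in KO E3. The mean of Dcn was 24.9 CPM in WT and 2.85 CPM in KO E3, and that of Pdgfra 25.9 and 50.7 CPM. The part of any of these sets of markers in the results below was not tested. In bulk RNA, fewer cells of a kind and less RNA per cell cannot be told apart.

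Replicate 3 of KO E3 stood apart from the other libraries of its line. Across 10926 genes, its log2 ratio to the other KO E3 libraries fell with exon length, with a Spearman correlation of -0.576, given as a description. The median ratio was 0.5 for the shortest 10% of genes and -0.6 for the longest 10%. Of the genes described here, the long genes Igf1r (19.8 kb of exon) and Igf2bp1 (10.3 kb) were at -0.62 and -0.59 in this library. The shorter genes Igfbp6 (1.38 kb), Igfbp4 (4.42 kb) and Igfbp7 (5.45 kb) were at log2 ratios of 0.71, 0.52 and 0.86. Igf2bp3 (8.73 kb) was at -0.16. All these ratios were taken after 0.5 CPM was added to each level. The addition shrinks the ratio of a scarce gene such as Igfbp7, which was at 0.3, 0.613 and 1.21 CPM in KO E3 replicates 1, 2 and 3. The part of exon length in each of these ratios was not tested. For the genes described here and the genes named from the pathway lists, fold changes of KO E3 are therefore also given without this library. Because the lines share an estimate of the spread, that library also enters the test of KO E5 against WT. Without it, 43.2% of all tested genes passed in KO E3 against WT, 42% in KO E5 against WT and 44.1% between the clones, and counts from that fit are to be read beside these shares.

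**Figure D1:**
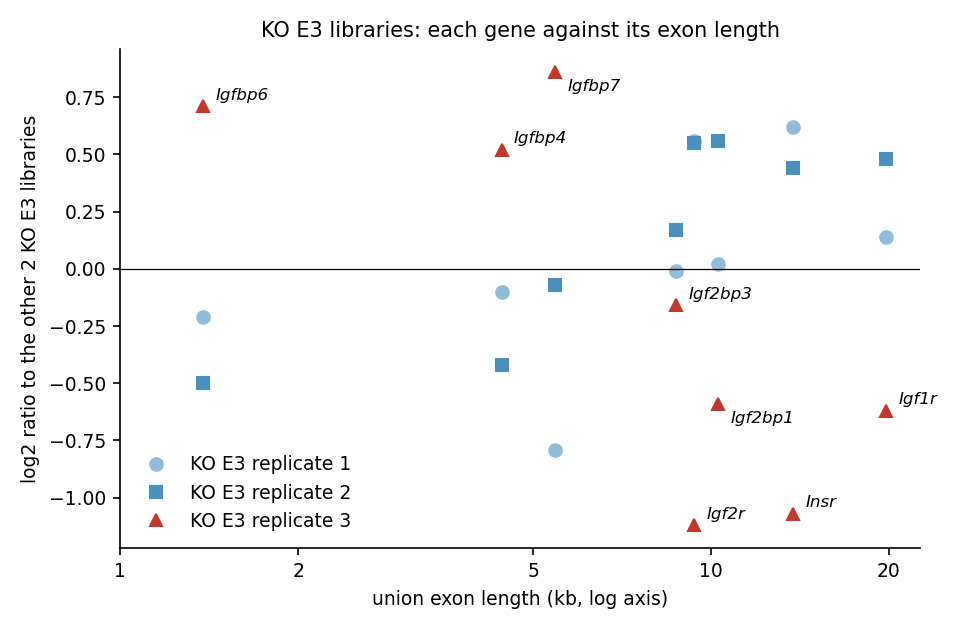
Log2 ratio of each gene in each KO E3 library to the mean of the other 2 KO E3 libraries (y axis) against union exon length in kb (x axis, log scale), for the 6 tested genes with Igf2r and Insr. Ratios were taken after 0.5 CPM was added to each level. Replicate 3 (red triangles) lies above 0 for Igfbp6, Igfbp4 and Igfbp7 and below 0 for the 5 longer genes.

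Of the 10 genes, 6 passed the filter and 4 did not. The ligand gene Igf1 (ENSMUSG00000020053.19, chr10:87694127-87772904, plus strand, GRCm39) had 0 counts in 7 libraries, 2 counts in KO E3 replicate 1 and 4 counts in KO E3 replicate 2. Igfbp2 (chr1:72863662-72891633, plus strand) and Igfbp3 (chr11:7156086-7163923, minus strand), which encode binding proteins common in serum and in many tumours, had 0 counts in all 9 libraries. Igfbp5 (chr1:72897091-72914043, minus strand) had 1 count, in WT replicate 3. A count of 0 allows a level of up to 0.0555 to 0.066 CPM per library (3 counts, counting error only). The other ligand genes Igf2, Ins1 and Ins2 had 0 counts in every library, as did Igfbp1 and Igfbpl1. Igfals, which encodes the acid-labile subunit of the serum IGF complex, and the insulin receptor-related gene Insrr had at most 2 counts in any library. Apart from the 6 counts of Igf1 in KO E3, no transcript of an IGF or insulin gene was detectable at this depth. Of the 6 binding-protein genes described here, 3 passed the filter, among them Igfbp7 at only 14 to 55 counts per library.

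Per kb of exon, the 6 genes past the filter kept 1 order in the 3 lines. In WT cells Igfbp4 was at 149 ± 5.22 CPM per kb, Igfbp6 at 28.3 ± 0.43, Igf1r at 6.99 ± 0.216, Igf2bp3 at 3.46 ± 0.141, Igf2bp1 at 2.23 ± 0.115 and Igfbp7 at 0.124 ± 0.0194 (SD, n = 3). The same order was found with the longest transcript in place of the union of exons. In KO E5 the distances were smaller at the top and at the level of the IGF2BP genes, with Igfbp4 at 80.1 ± 8.63 and Igfbp6 at 38.8 ± 2.57 CPM per kb, and Igf2bp3 at 4.99 ± 0.169 and Igf2bp1 at 4.07 ± 0.0762 CPM per kb (SD, n = 3). In none of the 3 lines did the libraries of neighbours in this order overlap, and the closest ranges were those of Igf1r, at 4.76 to 7.93 CPM per kb, and Igf2bp3, at 4 to 4.67 CPM per kb, in KO E3.

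**Figure D2:**
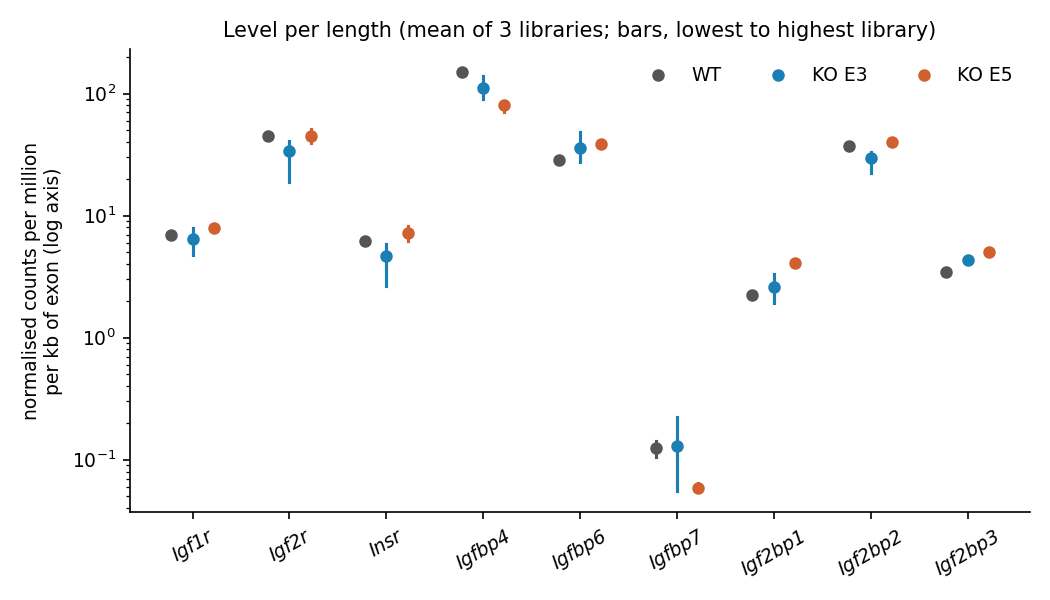
Level per length, in normalised CPM per kb of union exon on a log axis, of receptor, binding-protein and IGF2BP genes in WT, KO E3 and KO E5. Points are means of 3 libraries and bars run from the lowest to the highest library; Igfbp4 is the highest of the genes shown in each line and Igfbp7 the lowest.

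Igf1r encodes the receptor of IGF1 and IGF2 (ENSMUSG00000005533.11, chr7:67602575-67883416, plus strand). Its levels in the 3 WT libraries were 134.4, 137.5 and 142.8 CPM, in KO E3 133.9, 156.7 and 94.13 CPM, and in KO E5 146.6, 150.8 and 169.3 CPM. Every KO E5 library lay above every WT library by a narrow margin, and the KO E3 libraries lay on both sides of WT, with replicate 3 the lowest of all. Igf1r did not pass the test in any of the 3 comparisons. The log2 fold change was -0.11 in KO E3 against WT (95% interval -0.46 to 0.25, adjusted p = 0.65), 0.17 in KO E5 against WT (-0.18 to 0.52, adjusted p = 0.51) and 0.28 in KO E5 against KO E3 (-0.08 to 0.63, adjusted p = 0.211). The value of KO E3 against WT was 0.07 when KO E3 replicate 3 was left out (adjusted p = 0.534). The sign in KO E3 thus depended on this library, and the interval of KO E5 spanned 0. The difference between the clones also moved with single KO E3 libraries. It was 0.11 without replicate 3 (adjusted p = 0.336), 0.02 with an offset for the length trend (adjusted p = 0.841), and 0.45 without replicate 2, where it passed the test (adjusted p = 0.0422).

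The other receptor genes were expressed at levels per length above or near that of Igf1r. Igf2r, which encodes the receptor that clears IGF2, was at 44.8 ± 1.28 CPM per kb in WT and 45.2 ± 5.71 CPM per kb in KO E5, and Insr, the insulin receptor gene, at 6.22 ± 0.15 and 7.14 ± 1.01 CPM per kb (SD, n = 3). Their log2 fold changes against WT were -0.42 and -0.42 in KO E3 (adjusted p = 0.228 and 0.216) and 0.01 and 0.2 in KO E5 (adjusted p = 0.974 and 0.617). Both were low in KO E3 replicate 3, where Igf2r was at 176.4 CPM against 382.4 and 384.5 CPM in the other libraries of that line. Their KO E3 values were -0.13 and -0.14 (adjusted p = 0.276 and 0.259) without it. Of the 10 ligand, receptor and binding-protein genes listed beside those described here, Igf2r, Insr and Igf2bp2 passed the filter. Of these 3, 0 passed edgeR's test against WT in either clone, beside 30.5% of all tested genes in KO E3 and 20.6% in KO E5. At an unadjusted p under 0.05 it was 1 in KO E3 and 0 in KO E5. By DESeq2 it was 0 in both, beside 34.2% and 25.2% of all genes.

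Igfbp4 encodes a binding protein that holds IGFs and is cut by PAPP-A (ENSMUSG00000017493.13, chr11:98932070-98945218, plus strand). Its levels were 686, 647.2 and 645 CPM in WT, 459.6, 395.2 and 609.7 CPM in KO E3, and 311.2, 367 and 384.2 CPM in KO E5. Every library of both clones was below every WT library, and every KO E5 library was below every KO E3 library. In KO E5 it fell by 0.90 on the log2 scale against WT, a level 1.86-fold lower (SE 0.15, 95% interval -1.24 to -0.56, adjusted p = 0.00225). In KO E3 the value was -0.43 (SE 0.15, -0.77 to -0.1), which did not pass the test (adjusted p = 0.0538). The clones differed, with Igfbp4 lower in KO E5 than in KO E3 by a log2 fold change of -0.46 (adjusted p = 0.0407), a call that held in 8 of 17 alternatives.

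The call of Igfbp4 in KO E3 depended on the library that stood apart and on the processing. Without KO E3 replicate 3, which held the highest Igfbp4 level of its line, Igfbp4 fell by 0.63 in KO E3 on the log2 scale (adjusted p = 0.000307), and the difference between the clones narrowed to -0.26 (adjusted p = 0.0426). With all libraries kept, the KO E3 value also passed by DESeq2 (-0.44, adjusted p = 0.0278), with no filter on low counts (-0.45, adjusted p = 0.0231) and with the length-trend offset (-0.50, adjusted p = 0.0102), and it did not in the other 13 alternatives. In KO E5 against WT it passed the test in all 17 alternatives run, with values from -0.96 to -0.82.

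Igfbp6 encodes a binding protein that prefers IGF2 (ENSMUSG00000023046.7, chr15:102052797-102057946, plus strand). It was at 39.02, 38.43 and 39.62 CPM in WT, 43.36, 37.82 and 66.49 CPM in KO E3, and 50.14, 53.42 and 57.23 CPM in KO E5. The WT libraries had a coefficient of variation of 1.52%, and all KO E5 libraries lay above them. The log2 fold change in KO E5 was 0.46 (95% interval 0.07 to 0.85), which did not pass the test (adjusted p = 0.0959). In KO E3 it was 0.33 (-0.06 to 0.73, adjusted p = 0.183), and in KO E5 against KO E3 0.12 (-0.27 to 0.51, adjusted p = 0.63). With KO E3 replicate 3 left out, the KO E5 value was again 0.46 and passed (adjusted p = 0.000249), and the KO E3 value was 0.05 (adjusted p = 0.607). In that fit Igfbp6 was also higher in KO E5 than in KO E3, by 0.41 (adjusted p = 0.00121).

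The balance of Igfbp4 and Igfbp6 counts within a library differed between the lines. The ratio of Igfbp4 to Igfbp6 counts was 16.9 ± 0.652 in WT, 10.1 ± 0.785 in KO E3 and 6.6 ± 0.347 in KO E5 (SD, n = 3). The libraries of the 3 lines did not overlap in this ratio, at 16.3 to 17.6, 9.17 to 10.6 and 6.21 to 6.87. Both genes were high in KO E3 replicate 3, so that the ratio varied less within KO E3 than either level did. No test of the ratio was run, and an exact permutation test of 3 libraries against 3 cannot give a p under 0.1.

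Igfbp7 encodes a secreted binding protein with low affinity for IGFs (ENSMUSG00000036256.14, chr5:77497087-77555888, minus strand). It was scarce, at 39, 32 and 27 counts in WT, 15, 29 and 55 counts in KO E3, and 14, 14 and 19 counts in KO E5. As normalised levels these were 0.57 to 0.781 CPM in WT, 0.3 to 1.21 CPM in KO E3 and 0.302 to 0.351 CPM in KO E5. All KO E5 libraries were below all WT libraries, and KO E3 spanned both lines. The log2 fold changes were 0.06 in KO E3 (95% interval -0.85 to 0.96) and -1.07 in KO E5 (-2.06 to -0.09), with adjusted p of 0.937 and 0.119, and -1.13 in KO E5 against KO E3 (adjusted p = 0.0775). Those against WT were -0.57 (adjusted p = 0.194) and -1.07 (adjusted p = 0.0168) without KO E3 replicate 3, and that between the clones -0.49 (adjusted p = 0.306). Igfbp7 shares 747 bases of exon with Polr2b on the opposite strand, whose counts were 5848 to 9418 per library, so that the counts of Igfbp7 amounted to 0.175 to 0.875% of those of its neighbour. The library kit was a directional one, which keeps the strand of the RNA, but whether the counting used the strand is not given in the sources used here, and the share of Igfbp7 counts that came from Polr2b reads was not tested.

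**Figure D3:**
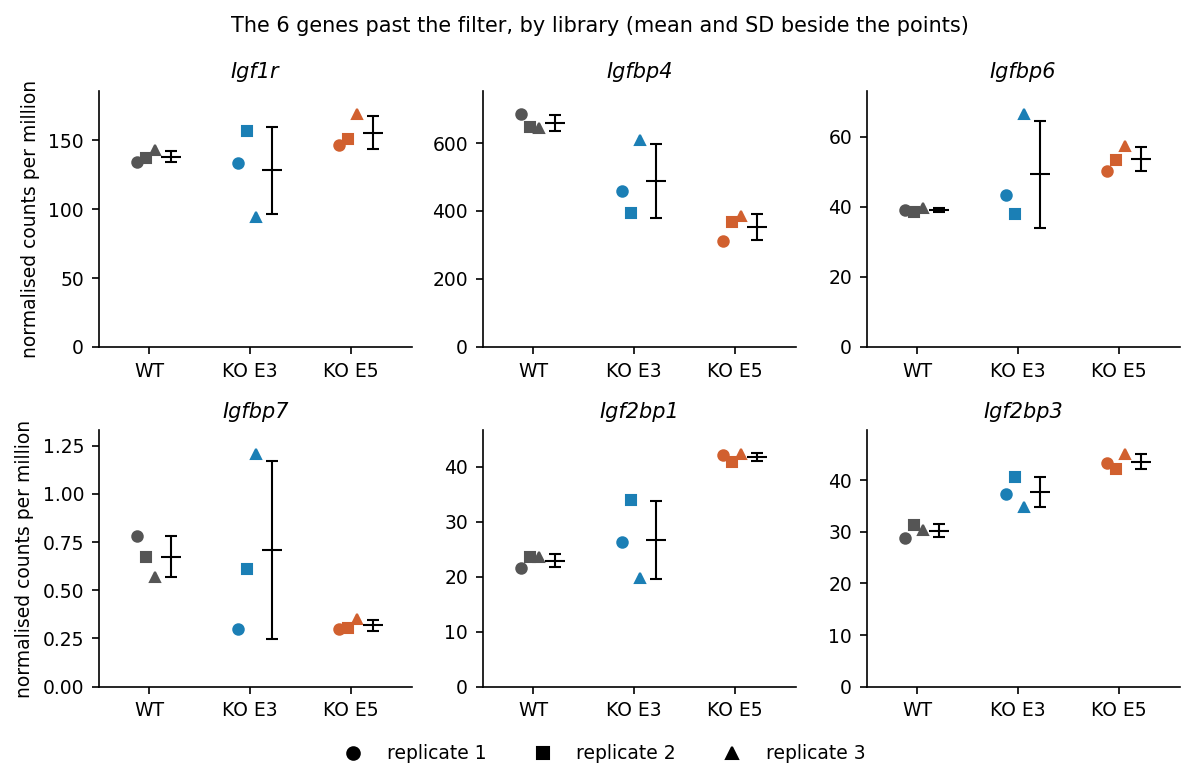
Normalised CPM of the 6 genes past the filter (y axes from 0, a scale for each gene) in each library of WT, KO E3 and KO E5, with the mean and SD of 3 libraries beside the points. Triangles mark replicate 3, which in KO E3 is high for Igfbp4, Igfbp6 and Igfbp7 and low for Igf1r and Igf2bp1.

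Igf2bp1 encodes an oncofetal mRNA-binding protein that shields its target mRNAs from decay (ENSMUSG00000013415.10, chr11:95847989-95896766, minus strand). It was at 21.51, 23.58 and 23.53 CPM in WT, 26.29, 33.89 and 19.72 CPM in KO E3, and 42.08, 40.92 and 42.42 CPM in KO E5. The KO E5 libraries lay together and above all others, whereas KO E3 spread around WT. Igf2bp1 rose in KO E5 by 0.87 on the log2 scale, 1.83-fold (SE 0.16, 95% interval 0.51 to 1.23, adjusted p = 0.00387). In KO E3 the value was 0.22 (-0.14 to 0.58, adjusted p = 0.34). The clones differed by 0.65, with Igf2bp1 higher in KO E5 (adjusted p = 0.012). Without KO E3 replicate 3, Igf2bp1 passed the test in KO E3 as well, with 0.39 (adjusted p = 0.00693), and remained higher in KO E5 than in KO E3 by 0.48 (adjusted p = 0.00195).

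Igf2bp3 encodes a related protein of the same family (ENSMUSG00000029814.11, chr6:49062157-49191891, minus strand). It was at 28.91, 31.34 and 30.46 CPM in WT, 37.4, 40.72 and 34.87 CPM in KO E3, and 43.28, 42.27 and 45.18 CPM in KO E5. The 3 lines did not overlap, with WT lowest and KO E5 highest. Igf2bp3 rose in KO E3 by 0.32 on the log2 scale, 1.25-fold (SE 0.09, 95% interval 0.11 to 0.52, adjusted p = 0.0242). In KO E5 it rose by 0.53, 1.44-fold (SE 0.09, 0.32 to 0.73, adjusted p = 0.00243). It was the single gene of the 6 tested that passed the test against WT in both clones, and the clones did not differ past the threshold (0.21, 95% interval 0.01 to 0.41, adjusted p = 0.103). The KO E3 call was the less firm of these: it passed in 10 of 17 alternatives. It was lost, for example, when any WT library was left out, where 19.3 to 21.5% of all tested genes passed. With KO E3 replicate 3 left out it was 0.37 (adjusted p = 0.00134), and the value between the clones 0.17 (adjusted p = 0.0789).

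Igf2bp3 shares 1685 bases of exon with Malsu1 on the opposite strand. Malsu1 had 545 to 838 counts per library and was at 15.1 ± 1.58 CPM in WT, 14.3 ± 3.01 in KO E3 and 12.4 ± 0.879 in KO E5 (SD, n = 3), without passing the test (log2 fold changes of -0.09 and -0.29 against WT). The third family gene, Igf2bp2, was more abundant per kb than either (37.1 ± 0.408 CPM per kb in WT, SD, n = 3) and did not pass the test against WT, with log2 fold changes of -0.33 in KO E3 (adjusted p = 0.104) and 0.12 in KO E5 (adjusted p = 0.602). It was higher in KO E5 than in KO E3, by 0.45 (adjusted p = 0.0328), and by 0.29 without KO E3 replicate 3 (adjusted p = 0.00303).

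Across the 6 tested genes, 3 passed the test in KO E5 against WT, where 20.6% of all tested genes did (2 higher, beside 8.96%, and 1 lower, beside 11.7%), and 1 in KO E3 against WT, where 30.5% did. Between the clones 2 passed, against 31.9% of all tested genes. The counts without KO E3 replicate 3 were 3 in KO E3, 5 in KO E5 and 3 between the clones, beside 43.2%, 42% and 44.1%. By edgeR 0 of the 6 were DEGs in any comparison. At an unadjusted p under 0.05 the fold criterion was met by Igfbp7 in KO E5 against WT and against KO E3, and DESeq2 called Igfbp7 in the latter. Of all tested genes, 9.82%, 8.21% and 11% were DEGs in KO E3 against WT, KO E5 against WT and KO E5 against KO E3. The libraries of KO E5 and WT did not overlap for all 6 genes, a pattern found in 55.4% of tested genes, and those of KO E3 and WT for 2 of the 6, against 45.4%. Between the clones 3 of the 6 did not overlap, against 44.6%. The median log2 fold change of the 6 was 0.14 in KO E3 and 0.31 in KO E5, beside 0.01 and -0.002 over all genes. With WT and KO E5 fitted alone, so that KO E3 did not enter the spread, all 6 passed the test in KO E5 against WT, where 46.8% of all genes tested in that fit did. In the same kind of fit of WT and KO E3, 0 of the 6 passed, against 23.5% (2 at an unadjusted p under 0.05). DESeq2 on the 3 lines called 2 of the 6 in KO E3, beside 34.2% of all genes.

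**Figure D4:**
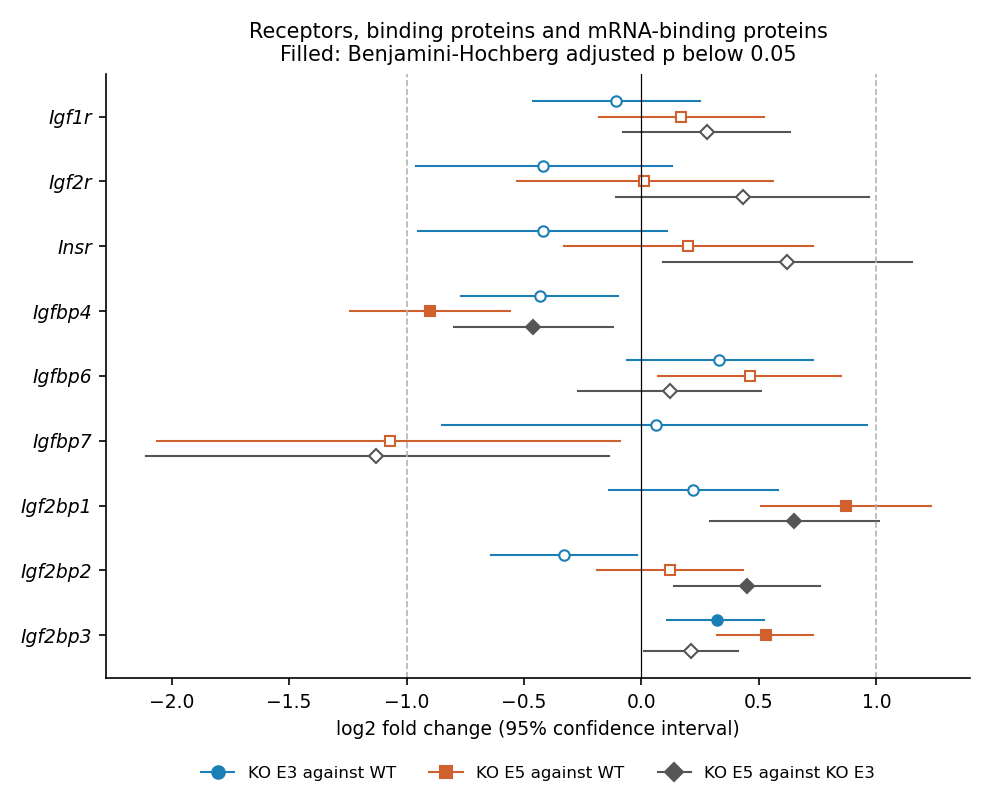
Log2 fold changes with 95% confidence intervals (x axis) of receptor, binding-protein and IGF2BP genes in KO E3 against WT, KO E5 against WT and KO E5 against KO E3. Filled symbols passed the test and dashed lines mark an absolute log2 fold change of 1; Igfbp4 in KO E5 lies left of 0, and Igf2bp1 and Igf2bp3 in KO E5 lie right of it.

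The sequences below are shown because the IGF2BP genes are known let-7 targets and because the let-7 regulator Lin28b differed between the lines. Levels of mature let-7 were not measured in these libraries of polyadenylated RNA, and let-7 activity was not tested. All 8 let-7 5p miRNAs with a RefSeq mature sequence (tables for GRCm38.p6) share the seed at bases 2 to 8, in capitals:
let-7a-5p: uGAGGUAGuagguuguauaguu
let-7d-5p: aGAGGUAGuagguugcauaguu
let-7i-5p: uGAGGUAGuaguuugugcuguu

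The complement of this seed in an mRNA, CTACCTC, was searched on the sense strand of the annotated 3′ UTRs of canonical transcripts (GENCODE M39, GRCm39). It was present in 9.5% of 21518 genes with a 3′ UTR. Igf2bp1 held 4 copies in a UTR of 6340 bases. Of 725 genes of like UTR length (within 20%, the gene itself included), 0.28% held at least as many. Igf1r held 2 copies in 7270 bases, and 8.88% of 484 such genes held at least 2. Igf2bp3 held 1 in 2135 bases, and 13.3% of 2828 such genes held at least 1. The binding-protein genes Igfbp2, Igfbp3, Igfbp4, Igfbp6 and Igfbp7 held none, whereas Igf1 and Igfbp5 held 1 each. A match is a description of the letters and was not tested as a site. The windows of Igf2bp1, Igf2bp3 and Igf1r are given with the match in capitals, 5′ to 3′ on the strand of the gene:
Igf2bp1, chr11:95852597-95852626, minus strand: gctgtgcgaagtaaaCTACCTCaaggtgtg
Igf2bp1, chr11:95850176-95850205, minus strand: cagcagtgctattaaCTACCTCagccccag
Igf2bp1, chr11:95849582-95849611, minus strand: gtataaatggatgaaCTACCTCagtcctca
Igf2bp1, chr11:95848959-95848988, minus strand: acttttggttttaatCTACCTCttagcaaa
Igf2bp3, chr6:49063714-49063743, minus strand: tgcatttttactcaaCTACCTCaggtattc
Igf1r, chr7:67878858-67878887, plus strand: ttttcaaacatttatCTACCTCactcttgt
Igf1r, chr7:67882964-67882993, plus strand: tttgccagagttcatCTACCTCtgggattt

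Among 15 genes of the let-7, LIN28 and oncofetal list, 11 were tested. The list was chosen with earlier results of these data known, so its counts are given as a description. Against WT, 5 passed in KO E3 (1 higher, 4 lower), where 30.5% of all tested genes did, and 2 in KO E5 (2 higher), where 20.6% did, with median log2 fold changes of -0.47 and 0.06. Between the clones 10 of the 11 passed, 8 higher and 2 lower in KO E5, against 31.9% of all tested genes; the list's median log2 fold change there was 0.45, beside -0.011 over all genes. Without KO E3 replicate 3 the count was 7 higher and 2 lower between the clones (beside 44.1% of all genes), 2 higher and 4 lower in KO E3 against WT (beside 43.2%), and 3 higher and 1 lower in KO E5 against WT (beside 42%). Lin28b, which encodes a protein that blocks the maturation of let-7, was at 1.8, 1.98 and 1.86 CPM in WT, 0.84, 1.04 and 0.572 CPM in KO E3, and 3.99, 3.08 and 4.14 CPM in KO E5. The lines did not overlap: Lin28b fell by 1.20 on the log2 scale in KO E3 (adjusted p = 0.00296) and rose by 0.99 in KO E5 (adjusted p = 0.0068), and the clones differed by 2.19 (adjusted p = 5.16e-05). The KO E3 value was -1.01 without replicate 3 (adjusted p = 0.00218), and the difference between the clones 2.00 (adjusted p = 1.05e-05). Lin28a had 0 counts in every library.

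Other genes of this list were also lower in KO E3 than in both WT and KO E5. Hmga2, an oncofetal chromatin protein gene named here after its values were seen, was at 646, 668 and 653 CPM in WT, 426, 518 and 318 CPM in KO E3, and 586, 590 and 602 CPM in KO E5. It fell by 0.64 in KO E3 (adjusted p = 0.00917), and the clones differed by 0.49 (adjusted p = 0.029). Hmga1 and E2f5, named likewise, fell in KO E3, with -0.35 and -0.51 (adjusted p = 0.0275 and 0.00306) and were higher in KO E5 than in KO E3 by 0.44 and 0.38 (adjusted p = 0.00904 and 0.0138). Peg10, an imprinted retrotransposon-derived gene, rose in KO E3 by 1.19 (adjusted p = 0.00169), and Afp, the fetal alpha-fetoprotein gene, rose in KO E5 by 1.46 (adjusted p = 0.0402) at 3 to 34 counts per library. When KO E3 replicate 3 was left out, the KO E3 values of Hmga2, Hmga1, E2f5 and Peg10 were -0.48, -0.43, -0.53 and 1.43, and the differences between the clones of Hmga2, Hmga1 and E2f5 were 0.34, 0.52 and 0.41, each past the test. Beside the fall of Lin28b in KO E3, the log2 fold changes of Igf2bp1 and Igf2bp3, which are not counted in this list, were 0.22 and 0.32 in that clone.

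The proteases that release IGFs from binding proteins, and their inhibitors, gave 6 tested genes of 9. Pappa, the gene of the main IGFBP4 protease, had at most 1 count in any library. Stc1 and Stc2 encode stanniocalcins, which inhibit PAPP-A. Stc1 was at 254, 202 and 204 CPM in WT, 127, 98.5 and 116 CPM in KO E3, and 21.2, 22.5 and 26.4 CPM in KO E5. It fell in both clones, with log2 fold changes of -0.95 in KO E3 (adjusted p = 0.000617) and -3.23 in KO E5 (adjusted p = 2.9e-07), in the same rank order of lines as Igfbp4. Stc2 went the other way in KO E5, from 1.42, 2.02 and 2.01 CPM in WT to 11, 10.6 and 11.6 CPM, a rise of 2.61 (adjusted p = 6.88e-06), and was at 1.19 to 1.88 CPM in KO E3. Htra1, a secreted serine protease gene named after its values were seen, fell in both clones, with -0.69 in KO E3 (adjusted p = 0.00156) and -0.49 in KO E5 (adjusted p = 0.0134). Pappa2, the gene of a related IGFBP protease, named likewise, had 3 to 26 counts per library and was lower in KO E5 than in KO E3 by a log2 fold change of -2.26 (adjusted p = 0.00613), at 0.52, 0.465 and 0.22 CPM in KO E3 and 0.129, 0.0651 and 0.0555 CPM in KO E5. Of the 6, 2 passed in KO E3, both lower, beside 30.5% of all tested genes, and 3 in KO E5, 1 higher and 2 lower, beside 20.6%, and the median log2 fold changes were -0.26 and -0.39. Without KO E3 replicate 3 the counts were 1 higher and 2 lower in KO E3 (beside 43.2%) and 1 higher and 4 lower in KO E5 (beside 42%). In that fit the KO E3 values of Stc1 and Htra1 were -0.97 and -0.78, both past the test, Pappa2 was at 1.06 in KO E3 (adjusted p = 0.0437), and its difference between the clones was -2.54 (adjusted p = 0.000825).

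Of 16 receptor adaptor and negative regulator genes, 15 were tested. In KO E3, 2 rose and 3 fell, beside 30.5% of all tested genes, and in KO E5, 2 rose and 1 fell, beside 20.6%. The median log2 fold change of the list was 0 in KO E3 and 0.1 in KO E5. The counts were 4 higher and 4 lower in each clone without KO E3 replicate 3, beside 43.2% and 42% of all genes. Socs2, a feedback inhibitor of growth hormone and cytokine signalling that can bind IGF1R, was at 13.7, 14.7 and 14.4 CPM in WT, 0.98, 1.1 and 1.1 CPM in KO E3, and 0.819, 2.19 and 3.49 CPM in KO E5. It fell in both clones, with log2 fold changes of -3.75 in KO E3 (adjusted p = 9.33e-05) and -2.70 in KO E5 (adjusted p = 0.000434). Grb14, an adaptor that restrains insulin receptor signalling, rose in both, by 1.49 in KO E3 (adjusted p = 0.000309) and by 1.07 in KO E5 (adjusted p = 0.00279), at 62 to 222 counts per library. The KO E3 values of Socs2 and Grb14 were -3.78 and 1.38 without replicate 3, both past the test. These were the DEGs against WT of this list.

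**Figure D5:**
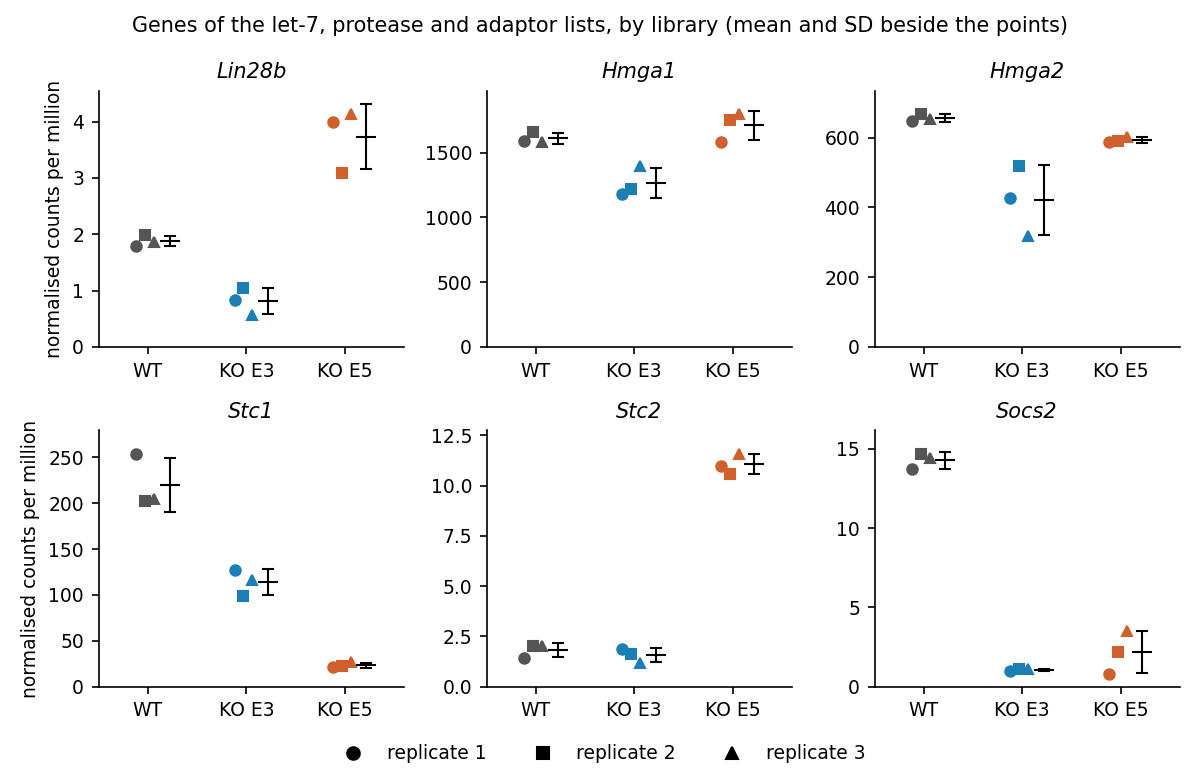
Normalised CPM (y axes from 0, a scale for each gene) of Lin28b, Hmga1, Hmga2, Stc1, Stc2 and Socs2 in each library of WT, KO E3 and KO E5, with the mean and SD of 3 libraries beside the points. Lin28b is lowest in KO E3 and highest in KO E5, Stc1 falls from WT to KO E3 to KO E5, and Stc2 is high in KO E5.

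Of the 28 genes of the PI3K-AKT-mTOR-FOXO branch, all were tested, and 17 did not pass the test in KO E3 and 23 in KO E5. In KO E3, 8 rose and 3 fell, a share of 28 genes to read beside the 30.5% of all tested genes. In KO E5, 3 rose and 2 fell, beside 20.6%, and the median log2 fold changes were -0.09 and 0.14. Without KO E3 replicate 3 the counts were 12 higher and 6 lower in KO E3 (beside 43.2% of all genes) and 10 higher and 5 lower in KO E5 (beside 42%). Sesn3, a FOXO target that restrains mTORC1, was at 6.91, 5.62 and 5.95 CPM in WT, 19.1, 16.6 and 8.22 CPM in KO E3, and had 0 counts in all 3 KO E5 libraries. It rose in KO E3 by 1.25 on the log2 scale (adjusted p = 0.0116, and by 1.53 without replicate 3) and was at least 99.8-fold lower in KO E5 than in WT (against 3 counts per library).

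The other DEGs of this branch passed against WT in 1 clone each. Inpp4b, a phosphoinositide phosphatase gene, rose in KO E5 by 2.02 (adjusted p = 0.00144), from 4.05, 4.59 and 5.74 CPM in WT to 23.4, 19 and 16.2 CPM. Pik3r3, a regulatory subunit gene of PI3K, rose in KO E3 by 1.26 (adjusted p = 0.00154), and so did Pik3ip1, an inhibitor of PI3K, by 1.26 (adjusted p = 0.0111). Between the clones Inpp4b differed by 2.49 (adjusted p = 0.000325) and Pik3r3 by -1.08 (adjusted p = 0.00341), whereas for Pik3ip1 the difference was -0.67 (adjusted p = 0.11). With KO E3 replicate 3 left out these differences were 2.15, -1.28 and -0.56, and the KO E3 values of Pik3r3 and Pik3ip1 were 1.48 and 1.16, with the same calls.

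The gene whose pattern over the 9 libraries lay nearest to a gene was found among 10429 genes, by the root-mean-square difference of centred log2 CPM. Before the log was taken, 0.5 CPM was added to each level, which shrinks the changes of the scarce Igfbp7. The nearest were Ubn1 for Igf1r (0.0461), Hexa for Igfbp4 (0.0663), Rpl36a for Igfbp6 (0.0815), Cisd3 for Igfbp7 (0.123) and Klhl42 for Igf2bp1 (0.0882), where the median difference over all candidates was 0.313 to 0.477. Hexa was at 78.7 ± 0.686 CPM in WT, 64 ± 12.8 in KO E3 and 44.4 ± 5.28 in KO E5, and Klhl42 at 53.7 ± 0.431, 57.1 ± 13.4 and 88.8 ± 1.97 CPM (SD, n = 3). Cisd3 changed less than Igfbp7 in KO E5 against WT, with log2 fold changes of -0.61 and -1.07. The points share libraries, and the spread of KO E3 replicate 3 is part of each of these patterns.

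Values of the genes next to Igfbp4, Igf2bp1 and Igf2bp3 on the chromosome are given as a description, for KO E5 against WT. Over the 10 nearest tested genes, 5 on each side, the median log2 fold change was -0.03 around Igfbp4 (-0.3 to 2.13, 1 past the test). Around Igf2bp1 it was 0.03 (-0.23 to 0.99, 2 past the test). Around Igf2bp3, the 10 neighbours had values from -1.23 to -0.18, all of the opposite sign to Igf2bp3. Their median was -0.37, and 5 passed the test, beside 20.6% of all tested genes. Igfbp2 and Igfbp5, both undetected or nearly so, lie next to each other on chromosome 1 in opposite orientation. Their neighbours were drawn from tested genes only and so were expressed by selection. These had median log2 fold changes of 0.14 in KO E3 and 0.06 in KO E5.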

How the data were processed

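RNA-seq of polyadenylated RNA was analysed for 3 WT, 3 KO E3 and 3 KO E5 libraries of LLC cells, grouped by their labels. Per the labels and the paper, reads passed through FastQC and Trimmomatic and were aligned by STAR on GRCm39. The authors deposited raw counts per gene, without normalization or pooling, and used DESeq2 for their own comparisons. The library kit was directional. Neither the counting tool nor its strand setting or annotation release is given in the sources used here.

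From the deposited counts, edgeR (version 4.0.16, R 4.3.3) was run with TMM scaling, filterByExpr (minimum count 10, minimum total 15) and the quasi-likelihood test, with the 3 lines in 1 fit and p adjusted by the Benjamini-Hochberg method. The 95% intervals use the fit's degrees of freedom, and the coefficient of variation between replicates was 14.8%. On simulated data for 14593 genes, the test recovered 94 of 109 genes changed by 1 on the log2 scale in KO E3 against WT. It recovered all 91 changed by 2, with 7 false calls. In KO E5 against WT it recovered 90 of 100 and 99 of 100, with 12 false calls. The simulation changed few genes, all well counted, by 1 or 2 only, and its counts held no length trend. Recovery of smaller changes, or of genes as scarce as Igfbp7, was not tested.

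Exon lengths and 3′ UTRs came from GENCODE M39 on GRCm39. This release differs from the one counted (56.2% of shared genes had the same start and end), so gene positions are those of the count table. let-7 sequences are RefSeq's (GRCm38.p6).

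The genes and lists were chosen with earlier results of these data known. Text names the 10 genes, up to 4 DEGs of each list with the greatest change, and the nearest pattern of each gene; that of Igf2bp3 is not reported here. Alternatives were DESeq2 (1.42.0), its size factors, upper-quartile scaling, other count filters, pairs of lines, a replicate block and each library left out; an offset for the length trend and the list counts without KO E3 replicate 3 were added after seeing the data.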

Additional observations from a re-analysis of the deposited data

Results flagged for a closer look

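The results here differed between the clones, by edgeR's test of KO E5 against KO E3, and are given as values. Among the IGF genes these were Igfbp4, with a log2 fold change of -0.46 (3 of 3 KO E5 libraries below every KO E3 library), and Igf2bp1, with 0.65 (3 of 3 above). The libraries of the clones did not overlap for 44.6% of all tested genes. The related gene Igf2bp2 differed by 0.45. Among the pathway list genes that were DEGs against WT, Stc1 differed by -2.28, Stc2 by 2.82, Inpp4b by 2.49, Pik3r3 by -1.08, Lin28b by 2.19, Peg10 by -1.38 and Afp by 2.26. DEGs between the clones alone, named after their values were seen, were Pappa2 (-2.26), Plag1 (1.45) and Sos2 (1.15). All of these differences also passed without KO E3 replicate 3, but that of Igfbp4 passed in only 8 of 17 alternatives. Sesn3 had 0 counts in the 3 KO E5 libraries and was at least 237-fold lower there than in KO E3. For Lin28b the clones moved in opposite directions from WT, each past the test. Each clone is a single line, and a difference between clones cannot be told apart from one between their histories. Dixon's test for a single outlying value of a gene was not applied to groups of 3 libraries; KO E3 replicate 3 stood apart from its line by its trend with exon length (Spearman correlation of -0.576).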

How the results depend on the processing

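Of 306 alternative values of the 6 tested genes' log2 fold changes, 265 kept their direction and their side of the threshold, 19 newly passed it, 16 no longer did and 6 changed sign. Igfbp4, Igf2bp1 and Igf2bp3 in KO E5 against WT, and Igf2bp1 between the clones, passed in all 17 alternatives. The count past the test in KO E3 against WT was 2 by DESeq2, beside 34.2% of all genes in that fit. It was 2 with the length-trend offset (34.4%), 0 with pairs of lines fitted alone (23.5%) and 0 with the replicate block (25.1%). In KO E5 against WT it was 6 with that pair fitted alone (46.8%). Between the clones it was 1 with the pair alone (22%) and 1 with the block (26.6%). Leaving out 1 library gave 0 to 3 in KO E3, beside 19.3 to 43.2% of all genes. The count there was 0 when any 1 WT library was left out, beside 19.3 to 21.5%. Such fits gave 3 to 5 in KO E5 (11.9 to 42%) and 1 to 3 between the clones (21.7 to 44.1%). The count of DEGs was 1, always Igfbp7, in KO E5 against WT with that pair alone, and between the clones by DESeq2 and with no filter; leaving out 1 library gave 0 to 1 in both. Igfbp6 passed in KO E3 without KO E3 replicate 2 (adjusted p = 0.0409), and Igfbp7 in KO E5 without KO E3 replicate 1 (adjusted p = 0.0433).

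The sign changes were of small or imprecise values: Igf1r in KO E3 (0.07 with the offset, and -0.28 to 0.07 with a library left out), Igfbp7 in KO E3 (-0.05 with the block, and -0.57 to 0.42 with a library left out, below 0 without WT replicate 3 or KO E3 replicate 3), Igfbp6 between the clones (-0.03 to 0.41 with a library left out, below 0 without KO E3 replicate 2) and Igf2r in KO E5 (-0.01 with the offset). Causes were not tested. Same-numbered libraries of different lines correlated from -0.172 to 0.0472 in their deviations, and differently numbered ones from -0.161 to 0.183. The labels do not state a pairing. With 3 libraries per line, these values can neither show nor exclude one. The calls of Lin28b, Hmga1, Hmga2, Stc1, Htra1, Socs2, Grb14, Sesn3, Pik3r3 and Peg10 in KO E3 held without replicate 3. The 14 to 55 counts of Igfbp7 limit its precision.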

Other observations

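The ratio of Igf2bp1 to Igf2bp3 counts was 0.756 ± 0.0146 in WT, 0.7 ± 0.133 in KO E3 and 0.96 ± 0.0181 in KO E5 (SD, n = 3). The KO E5 libraries, at 0.939 to 0.972, lay above all others. The ratio of each to Igf2bp2 counts was higher in every KO library than in every WT library, at 0.0715 to 0.0799 in WT, 0.0992 to 0.127 in KO E3 and 0.125 to 0.135 in KO E5 for Igf2bp1, and at 0.096 to 0.105, 0.141 to 0.194 and 0.129 to 0.144 for Igf2bp3. These ratios were not tested.

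The ratio of Igf1r to Insr counts was 1.62 ± 0.0877 in WT, 2.11 ± 0.455 in KO E3 and 1.59 ± 0.113 in KO E5 (SD, n = 3), so that WT and KO E5 differed by less than the spread between replicates. Lin28b held 4 copies of CTACCTC in an annotated 3′ UTR of 4518 bases. Of 1586 genes of like length, the gene itself included, 0.19% held at least as many. Trim71, which encodes a let-7-regulated ubiquitin ligase, held 4 copies in 5515 bases, and 0.38% of 1039 such genes held at least as many. Trim71 was at 5.09, 4.44 and 4.83 CPM in WT, 2.82, 4.46 and 2.33 CPM in KO E3 and 5.62, 4.66 and 4.72 CPM in KO E5, and was higher in KO E5 than in KO E3 by 0.64 (edgeR adjusted p = 0.045, and 0.0603 without KO E3 replicate 3).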
